A study of Mus musculus with 8 samples.

Results

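Lewis lung carcinoma (LLC) cells that lack FIH and were kept at 21% O2 were compared with unedited (WT) LLC cells kept at 1% O2, which asks how much of the WT hypoxic transcriptome is present in FIH-KO cells that have ample oxygen. LLC is a mouse lung tumor line grown in culture. The FIH-KO cells carry a CRISPR/Cas9 edit directed at exon 2 of Hif1an, the gene for FIH, and were grown out from single cells, so they stand for clonally selected cells as well as for the lost enzyme. Culture lasted 16 hours, either with 21% O2, called normoxia, or with 1% O2, called hypoxia, and no drug was given. Of the 8 RNA-Seq libraries of the series, 4 entered this comparison, 2 of FIH-KO normoxia and 2 of WT hypoxia. The 2 libraries of WT normoxia are the baseline of both groups, and the 2 of FIH-KO hypoxia are given where they bear on a gene. The compared groups differ in genotype and in oxygen, and in the direct difference these cannot be told apart, so each group is also set against WT normoxia. Both of those contrasts use the same WT normoxia libraries, and they are given side by side as values and not as independent evidence of each other.

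Oxygen controls hypoxia-inducible factors (HIFs) at separate points. Prolyl hydroxylases (PHD1 to PHD3, genes Egln2, Egln1 and Egln3) mark HIF-α subunits for capture by the VHL ubiquitin ligase and destruction, while FIH hydroxylates an asparagine in the C-terminal transactivation domain and so blocks the binding of the coactivators p300 and CBP. In normoxic cells without FIH the prolyl hydroxylases still act, and in hypoxic WT cells both kinds of enzyme are slowed by lack of their substrate oxygen. HIF target genes have long been known to differ in how much they need the C-terminal domain. Classic targets carry out glucose uptake and glycolysis, feedback on the pathway, mitophagy, angiogenesis, acid export, collagen modification and glycogen storage.

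HIF dimers bind the core letters ACGTG or GCGTG, and the 250 bases before the canonical start of target genes were read to show where these letters stand. The promoters of Ero1a, P4ha2 and Bnip3 are shown because these genes had large differences between the groups, that of Pgk1 as a classic glycolytic target, and those of Ddit4 and Vegfa because both genes rose in each group against WT normoxia. Sequences are from the GRCm39 reference with GENCODE starts, 5′ to 3′ on the gene's strand, and capitals mark each core on either strand. They lie at chr14:45556037-45556286 (Ero1a, minus strand), chr11:53991500-53991749 (P4ha2, plus strand), chr7:138511254-138511503 (Bnip3, minus strand), chrX:105230456-105230705 (Pgk1, plus strand), chr10:59787663-59787912 (Ddit4, minus strand) and chr17:46343310-46343559 (Vegfa, minus strand).
Ero1a: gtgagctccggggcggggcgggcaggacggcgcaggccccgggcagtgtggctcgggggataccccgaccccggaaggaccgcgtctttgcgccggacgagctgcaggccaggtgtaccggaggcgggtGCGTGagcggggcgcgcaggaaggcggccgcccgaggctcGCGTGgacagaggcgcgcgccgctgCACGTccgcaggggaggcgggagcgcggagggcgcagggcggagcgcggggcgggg
P4ha2: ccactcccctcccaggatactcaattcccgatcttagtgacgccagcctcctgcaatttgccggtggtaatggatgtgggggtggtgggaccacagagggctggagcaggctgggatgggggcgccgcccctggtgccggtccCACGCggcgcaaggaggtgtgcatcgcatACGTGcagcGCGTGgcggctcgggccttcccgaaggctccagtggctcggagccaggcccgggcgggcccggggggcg
Bnip3: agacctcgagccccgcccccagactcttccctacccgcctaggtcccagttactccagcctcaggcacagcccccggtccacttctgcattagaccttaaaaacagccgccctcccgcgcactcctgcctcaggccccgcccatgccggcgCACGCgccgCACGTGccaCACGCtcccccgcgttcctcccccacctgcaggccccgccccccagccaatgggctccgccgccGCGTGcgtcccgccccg
Pgk1: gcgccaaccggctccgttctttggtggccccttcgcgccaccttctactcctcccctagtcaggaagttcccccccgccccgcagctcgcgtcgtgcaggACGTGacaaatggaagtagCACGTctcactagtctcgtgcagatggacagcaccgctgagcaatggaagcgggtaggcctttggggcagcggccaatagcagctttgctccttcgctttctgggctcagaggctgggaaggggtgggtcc
Ddit4: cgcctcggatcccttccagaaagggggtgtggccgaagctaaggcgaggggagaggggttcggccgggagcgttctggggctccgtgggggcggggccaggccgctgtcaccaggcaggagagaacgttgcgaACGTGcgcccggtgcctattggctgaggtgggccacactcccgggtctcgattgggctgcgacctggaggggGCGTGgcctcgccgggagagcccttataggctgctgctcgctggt
Vegfa: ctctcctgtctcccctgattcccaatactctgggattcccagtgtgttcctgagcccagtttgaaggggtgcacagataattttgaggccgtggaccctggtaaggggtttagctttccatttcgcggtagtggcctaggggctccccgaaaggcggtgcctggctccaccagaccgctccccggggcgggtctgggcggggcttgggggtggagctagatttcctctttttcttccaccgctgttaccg
Cores stood 3 times before Ero1a, 3 times before P4ha2, 5 times before Bnip3, where the palindrome CACGTG counts on both strands, 2 times before Pgk1 and 2 times before Ddit4, and 0 times in the window of Vegfa. Other list members that rose in each group are not shown. Of these, Ndrg1 had 3 cores, Hk1 and Plod1 had 1 each, and Gbe1, Eno2 and Kdm3a had 0. A core was present in 50 of 70 tested hypoxia-list promoters (71.4%), in 6291 of 11622 promoters of all tested protein-coding genes (54.1%) and in 8997 of 21770 of all protein-coding genes (41.3%). Among list members higher in WT hypoxia than in FIH-KO normoxia it was present in 39 of 54 (72.2%), and among the other tested members in 11 of 16 (68.8%). The letters describe the sequence and do not show binding.

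The 4 libraries held between 14519731 and 18177016 counts on genes, and the 8 libraries had the same limits. Of 53700 genes in the table, 13933 passed the filter on low counts and were tested. Hif1an (chromosome 19, 44551286 to 44568723, GRCm39) was at 34.8 and 37.7 CPM (counts scaled to a common library size) in FIH-KO normoxia and at 90.2 and 84.0 in WT hypoxia, a log2 difference of -1.27 (standard error 0.12, adjusted p = 5.7e-06, edgeR), so its RNA was lower and still present. The mesenchymal gene Vim was at 5314 and 5218 CPM against 3613 and 3189, and the keratin gene Krt8 at 332 and 277 against 140 and 104. The keratin gene Krt19 had the opposite order, at 0.655 and 0.952 CPM against 10.4 and 4.98 (-3.25, adjusted p = 0.00019), and Krt18 was at 205 and 158 against 132 and 117 (0.54, adjusted p = 0.023). The Krt18 call was lost without FIH-KO normoxia replicate 1 (0.36, adjusted p = 0.18) or WT hypoxia replicate 2 (0.46, adjusted p = 0.15). The epithelial genes Epcam and Cdh1 and the lung lineage genes Nkx2-1 and Sftpc were under the filter in this lung carcinoma line. Of 13 mesenchymal markers 11 were tested. Of these, 6 were higher in FIH-KO normoxia (23.5% of all tested genes) and 1 in WT hypoxia (23.8% of all tested genes). Their summed level, of which Vim is a large part, was 10541 and 11010 CPM against 6764 and 6454. It was 5824 and 6981 CPM in WT normoxia and 12480 and 11048 in FIH-KO hypoxia. The part of this marker shift in the other results was not tested. Of 12 immune and endothelial markers 3 were tested, and these summed to between 11.3 and 21.7 CPM in the 8 libraries. In 16 genes that held at least 5 CPM in every WT library, both replicate 2 libraries of FIH-KO cells had 3 reads or fewer, and replicate 1 of FIH-KO normoxia had more than 3 reads in 16 of them, at a median of 4.15% of the WT normoxia level (quartiles 3.62% and 5.09%). Replicate 1 of FIH-KO hypoxia had more than 3 reads in 10 of them, at a median of 2.3% of the WT hypoxia level. Whether replicate 1 of the FIH-KO libraries holds some WT reads or cells was not tested. The converse, 3 reads or fewer in both replicate 1 libraries, was met by 0 genes. Without replicate 1 of FIH-KO normoxia 4966 genes were called between the groups, against 6597 with it. Nothing in the labels says that replicates are separate cultures, so the p-values measure the spread between these libraries, which may be technical, and in bulk RNA fewer cells of a kind and less RNA per cell cannot be told apart.

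In overall expression FIH-KO normoxia and WT hypoxia lay farther from each other than either lay from WT normoxia. The root mean square difference of log2 CPM over tested genes was 1.07 to 1.14 between libraries of FIH-KO normoxia and WT hypoxia, 0.81 to 0.89 between WT normoxia and FIH-KO normoxia, and 0.77 to 0.81 between WT normoxia and WT hypoxia. Libraries of the same group differed by 0.42 in FIH-KO normoxia and 0.39 in WT hypoxia. The first of these ranges did not overlap with the other two. FIH-KO normoxia lay 0.60 to 0.74 from FIH-KO hypoxia.

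Gene by gene, 6597 of 13933 tested genes (47.3%) differed between FIH-KO normoxia and WT hypoxia at an adjusted p under 0.05 (edgeR quasi-likelihood test). Of these, 3274 were higher in FIH-KO normoxia (23.5%) and 3323 were higher in WT hypoxia (23.8%). A called difference of more than 1 log2 unit was found for 2796 genes (20.1%), and of more than 2 units for 1041 (7.47%). Against WT normoxia, FIH-KO normoxia had 3933 called genes (28.2%), 2116 higher (15.2%) and 1817 lower (13%). WT hypoxia had 4509 (32.4%), 2349 higher (16.9%) and 2160 lower (15.5%). The median size of a difference was 0.48 log2 units in the direct comparison, 0.34 for FIH loss and 0.37 for hypoxia, at a median standard error of 0.17 in each. For 7340 genes (52.7%) the 95% interval of the direct difference lay within 1 log2 unit of 0, so that at this depth these genes were within 2-fold of each other, and for 1431 (10.3%) it lay wholly beyond 1 unit.

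**Figure D1:**
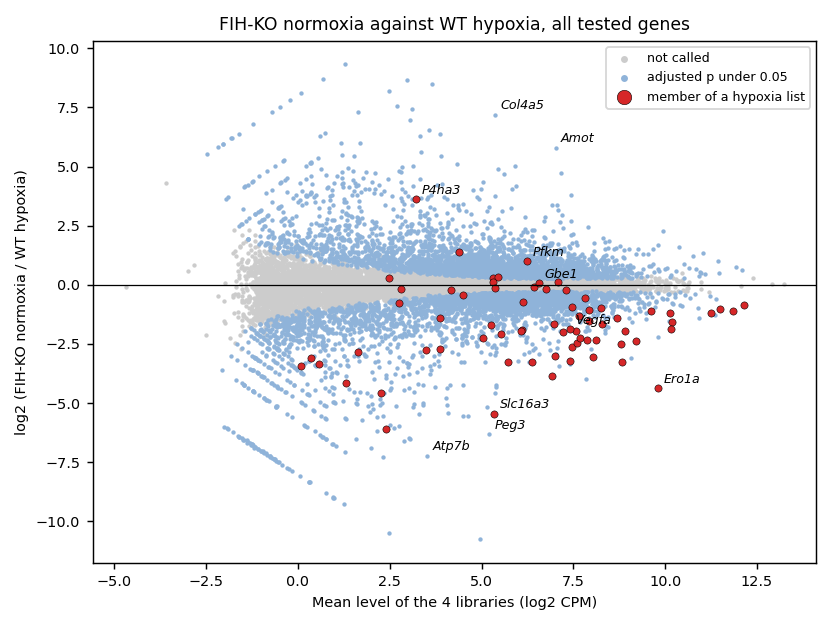
Each point is 1 of the 13933 tested genes, with the mean level of the 4 compared libraries in log2 CPM on the x axis and the log2 difference FIH-KO normoxia over WT hypoxia on the y axis. Blue points had an adjusted p under 0.05, red points are members of the hypoxia lists, most of which lie below 0, and the straight diagonal rows at low levels are genes with almost no reads in 1 group, whose fitted differences depend on a prior count.

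Genes of the hypoxia lists were on the side of WT hypoxia. The 7 lists hold 81 genes, of which 70 were tested, and 54 of the 70 were higher in WT hypoxia (background 23.8%), 3 were higher in FIH-KO normoxia (background 23.5%) and 13 were not called. The median direct difference of the 70 was -1.68, against -0.020 over all tested genes, and for 40 of them the whole interval lay below -1. The CPM of the groups did not overlap in 63 of 70 (90%), against 74.5% of all tested genes. In 57 of the 70 both WT hypoxia libraries were above both FIH-KO normoxia libraries (38.4% of all tested genes), and in 6 the reverse held (36.1%). Against WT normoxia, 10 of the 70 were higher in FIH-KO normoxia (background 15.2%) and 16 were lower (background 13%), with a median of -0.03. In WT hypoxia 54 were higher (background 16.9%) and 4 lower (background 15.5%), with a median of 1.42. These were not all the same genes as the 54 higher in WT hypoxia in the direct comparison. Slc2a3, Aldoc, Tgfa, Car12 and Loxl2 were called in the direct comparison but were not called with hypoxia. They fell with FIH loss, by -0.95, -2.41, -3.14, -2.98 and -2.48, and their differences with hypoxia were 0.44, 1.01, 0.99, 0.37 and 0.36. Summed over the lists, the level was 15270 and 14959 CPM in FIH-KO normoxia, 40919 and 35189 in WT hypoxia, 19417 and 17717 in WT normoxia and 47992 and 39847 in FIH-KO hypoxia. Within FIH-KO cells, both hypoxia libraries were above both normoxia libraries in 58 of 70, against 25.9% of all tested genes.

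**Figure D2:**
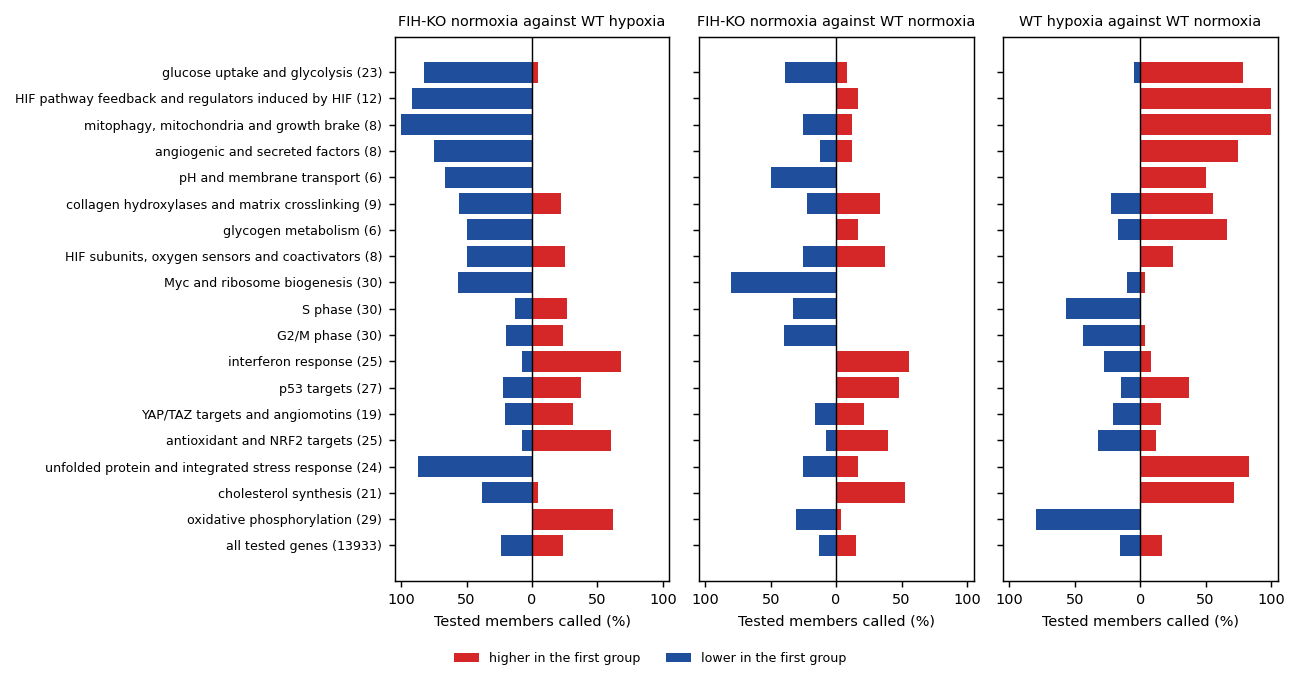
Bars give the percentage of tested members called higher (red, to the right) or lower (blue, to the left) in the first-named group, for each gene list (rows, number tested in parentheses) in 3 comparisons (panels). The hypoxia lists extend to the left in the direct comparison and to the right in WT hypoxia against WT normoxia, and the bars of all tested genes are 23.5% and 23.8% in the first panel.

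Glucose uptake and glycolysis showed the pattern across nearly the whole pathway. Of 23 tested genes, 19 were higher in WT hypoxia (background 23.8%), 1 in FIH-KO normoxia (background 23.5%) and 3 were not called. The summed level was 12386 and 12288 CPM against 30252 and 25439. Slc2a1, which encodes the glucose transporter GLUT1, was at 144 and 124 CPM in FIH-KO normoxia and at 810 and 699 in WT hypoxia. The FIH-KO normoxia libraries lay at the WT normoxia level of 128 and 126, and the direct difference was -2.49 (interval -2.99 to -2.0, adjusted p = 5.5e-06, edgeR). Hk2, the inducible hexokinase of the first glycolytic step, was at 92.8 and 90.0 CPM against 524 and 395, a direct difference of -2.33 (standard error 0.18). Pfkp, the platelet-type phosphofructokinase, was at 62.6 and 51.3 against 500 and 442, a difference of -3.05 (standard error 0.18, adjusted p = 3.5e-07). Against WT normoxia Pfkp fell in FIH-KO cells (-0.51, adjusted p = 0.044) and rose in WT hypoxia (2.53, adjusted p = 4.1e-06). Pgk1, a kinase that yields ATP in glycolysis, was at 468 and 503 CPM against 1899 and 1661, and none of these libraries overlapped across groups.

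The end of the pathway differed in the same direction. Ldha, which turns pyruvate into lactate, was at 1466 and 1497 CPM in FIH-KO normoxia, 3587 and 3151 in WT hypoxia and 2384 and 1970 in WT normoxia. It fell by 0.56 log2 units with FIH loss (adjusted p = 0.0096) and rose by 0.63 with hypoxia (adjusted p = 0.0043), so the FIH-KO normoxia libraries were the lowest of these. Slc16a3 (chromosome 11, 120838846 to 120851694, GRCm39) encodes the lactate exporter MCT4 and had the largest direct difference of the glycolysis list. It was at 2.26 and 1.40 CPM in FIH-KO normoxia, 95.3 and 64.0 in WT hypoxia, 12.5 and 7.40 in WT normoxia and 112 and 62.7 in FIH-KO hypoxia. The direct difference was -5.45 (interval -6.28 to -4.61, adjusted p = 9.3e-07), and the FIH-KO hypoxia libraries stood around the WT hypoxia ones. Pdk1, the kinase that keeps pyruvate out of the mitochondria, was at 74.4 and 45.6 CPM against 341 and 314, a difference of -2.45 (standard error 0.20). Pfkm, the muscle-type phosphofructokinase, was the exception, at 110 and 92.2 CPM against 44.3 and 55.8, and fell in WT hypoxia (-0.68, adjusted p = 0.0031). Hk1, the constitutive hexokinase, rose in each group against WT normoxia, by 0.56 in FIH-KO normoxia (adjusted p = 0.01) and 1.10 in WT hypoxia (adjusted p = 0.00016), and differed between them by -0.54 (adjusted p = 0.0063). This direct call was lost without FIH-KO normoxia replicate 2 (-0.44, adjusted p = 0.058) or WT hypoxia replicate 1 (-0.35, adjusted p = 0.1). The genes not called were Pfkfb4, Eno2 and Pdk3, with differences of -0.18, -0.21 and -0.12.

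**Figure D3:**
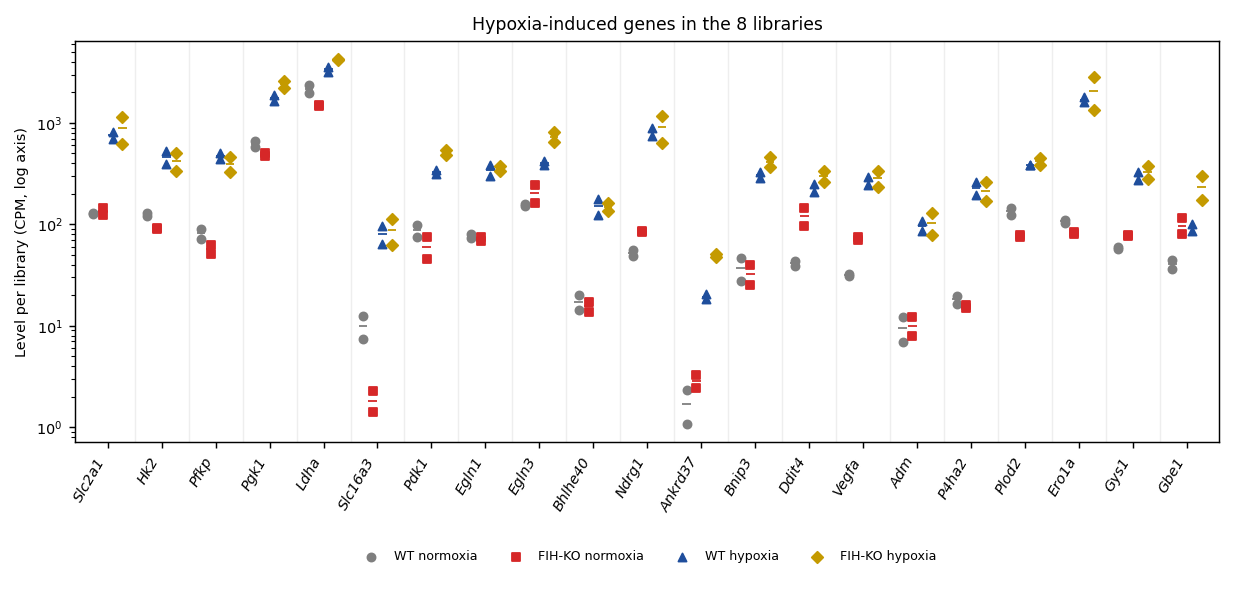
CPM on a log axis for genes of the hypoxia lists (x axis) in each of the 8 libraries, with a point for a library and a short line for the mean of a group, WT normoxia in gray, FIH-KO normoxia in red, WT hypoxia in blue and FIH-KO hypoxia in yellow. Red points lie near the gray ones in most genes. They were called lower than the gray ones in Pfkp, Ldha, Slc16a3 and Plod2, lie between gray and blue in Vegfa, Ddit4 and Ndrg1, and are at the blue level in Gbe1.

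Feedback genes of the HIF pathway followed. Of 12 tested, 11 were higher in WT hypoxia (background 23.8%) and 0 in FIH-KO normoxia (background 23.5%), with a median of -1.68. Egln1, which encodes PHD2, was at 67.9 and 74.5 CPM against 383 and 297, a direct difference of -2.25 (standard error 0.14). The FIH-KO normoxia libraries overlapped with the 79.7 and 72.8 CPM of WT normoxia and were not called against them (difference -0.10, standard error 0.14, adjusted p = 0.63). Egln3, which encodes PHD3, was at 245 and 163 CPM against 426 and 389 and 157 and 151 in WT normoxia, and the rise with FIH loss did not pass the test (0.40, adjusted p = 0.11). Bhlhe40, a transcriptional repressor, was at 17.3 and 13.7 CPM against 176 and 124. Ndrg1, a stress gene of the hypoxic response, was at 85.7 and 83.8 CPM against 884 and 744, with 55.8 and 48.5 in WT normoxia. It rose with FIH loss by 0.70 (standard error 0.22, adjusted p = 0.035) and with hypoxia by 3.97 (standard error 0.25, adjusted p = 2.1e-06). Kdm3a, a histone H3K9 demethylase, behaved in the same way at 130 and 104 CPM against 327 and 250, with a rise of 0.45 with FIH loss (adjusted p = 0.043) and a direct difference of -1.30. Cited2, which competes with HIF-α for p300 and CBP, was not called (-0.22, interval -0.53 to 0.08, adjusted p = 0.21).

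Among genes of mitophagy, mitochondria and the brake on growth, 8 of 8 tested members were higher in WT hypoxia (background 23.8%). For 7 of them the interval lay below -1. Bnip3, a mitophagy receptor, was at 40.1 and 25.1 CPM in FIH-KO normoxia, 328 and 287 in WT hypoxia and 46.9 and 27.9 in WT normoxia. The difference was -3.24 (standard error 0.25, adjusted p = 1.7e-06), and the FIH-KO normoxia and WT normoxia libraries overlapped. Higd1a, a mitochondrial inner membrane protein, was at 30.1 and 27.4 CPM against 247 and 209. Ddit4, which encodes the mTORC1 inhibitor REDD1, differed least, at 146 and 95.4 CPM against 251 and 210. Against the 43.5 and 39.0 CPM of WT normoxia it rose by 1.55 with FIH loss (standard error 0.19, adjusted p = 0.00018) and by 2.48 with hypoxia (standard error 0.20, adjusted p = 8.9e-06).

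Of 8 tested angiogenic and secreted factors, 6 were higher in WT hypoxia (background 23.8%) and 0 in FIH-KO normoxia (background 23.5%). Vegfa, the main angiogenic growth factor (chromosome 17, 46327919 to 46343309, GRCm39), was at 74.6 and 70.9 CPM in FIH-KO normoxia, 291 and 243 in WT hypoxia, 30.8 and 32.3 in WT normoxia and 335 and 234 in FIH-KO hypoxia. The 3 groups compared did not overlap, and FIH-KO normoxia stood between the other two. Vegfa rose by 1.20 log2 units with FIH loss (standard error 0.16, adjusted p = 0.0003) and by 3.08 with hypoxia (standard error 0.17, adjusted p = 2e-06), and the direct difference was -1.88 (interval -2.22 to -1.53). Adm, the vasodilator adrenomedullin, was at 7.86 and 12.1 CPM against 107 and 85.7, with 12.1 and 6.99 in WT normoxia. Stc2, a secreted stanniocalcin, was at 0.298 and 0 CPM against 12.6 and 8.33 (-6.11, standard error 0.59). All 5 reads of its FIH-KO normoxia group were in replicate 1, and without that library the fitted difference was -10.40, a value that depends on the prior count. Angptl4, a lipoprotein lipase inhibitor, and Ctf1, the cytokine cardiotrophin, were not called.

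The pH and transport list had 4 of 6 tested genes higher in WT hypoxia (background 23.8%). Tfrc, the transferrin receptor for iron uptake, was at 169 and 217 CPM in FIH-KO normoxia, 1020 and 975 in WT hypoxia and 398 and 326 in WT normoxia. It fell with FIH loss (-0.90, adjusted p = 0.013) and rose with hypoxia (1.46, adjusted p = 0.00078), with a direct difference of -2.37 (standard error 0.24). Car9, the membrane carbonic anhydrase long used as a hypoxia marker, was low everywhere in these cells. It held 9 reads in the FIH-KO normoxia libraries together, 76 in WT hypoxia, 7 in FIH-KO hypoxia and 4 in WT normoxia. Its level in WT hypoxia was 19 times that in WT normoxia (counting interval 7.11 to 71.4), and in FIH-KO hypoxia 1.81 times (0.46 to 8.43). The creatine transporter gene Slc6a8 was at 139 and 140 CPM against 127 and 131 and was not called.

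Collagen hydroxylases and crosslinking enzymes differed in both directions. Of 9 tested, 5 were higher in WT hypoxia (background 23.8%), 2 in FIH-KO normoxia, which is near the background of 23.5%, and 2 were not called. Ero1a (chromosome 14, 45520541 to 45556228, GRCm39), the oxidase that drives disulfide formation in the endoplasmic reticulum, was at 83.5 and 81.0 CPM in FIH-KO normoxia, 1607 and 1794 in WT hypoxia and 111 and 103 in WT normoxia. The direct difference was -4.37 (interval -4.99 to -3.75, adjusted p = 5.5e-07), and FIH-KO hypoxia reached 2829 and 1335 CPM. P4ha2, a collagen prolyl 4-hydroxylase, was at 16.1 and 14.9 CPM against 259 and 193 (-3.86, standard error 0.22). Its relative P4ha3 had the opposite order, at 20.5 and 14.0 CPM against 1.63 and 1.16, with 6.81 and 6.58 in WT normoxia (3.61, standard error 0.35, adjusted p = 8.5e-06). P4ha3 rose with FIH loss (1.36, adjusted p = 0.0048) and fell with hypoxia (-2.24, adjusted p = 0.00079). Loxl4, a lysyl oxidase, was likewise higher in FIH-KO normoxia (26.5 and 33.8 CPM against 11.7 and 11.1). Plod1, a lysyl hydroxylase, was at 101 and 102 CPM against 124 and 107 and was not called (-0.19, interval -0.44 to 0.06), and it rose in each group against the 60.7 and 64.6 CPM of WT normoxia, by 0.70 and 0.89. Plod3, another lysyl hydroxylase, was not called either.

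In glycogen metabolism 3 of 6 tested genes were higher in WT hypoxia (background 23.8%) and 0 in FIH-KO normoxia (background 23.5%). Gys1, the glycogen synthase, was at 79.2 and 76.3 CPM against 328 and 275 (-1.96, standard error 0.15). Gbe1, the branching enzyme, was at 115 and 79.6 CPM in FIH-KO normoxia and 100 and 85.7 in WT hypoxia, and the groups overlapped. The direct difference was 0.06 with an interval from -0.43 to 0.56 (adjusted p = 0.85, edgeR), which allows a difference of up to 0.56 log2 units. Against the 44.7 and 36.4 CPM of WT normoxia Gbe1 rose by 1.26 in FIH-KO normoxia (adjusted p = 0.0021) and by 1.20 in WT hypoxia (adjusted p = 0.0025). Ugp2, which makes UDP-glucose, and the phosphoglucomutase gene Pgm2 were not called, whereas Pgm1 was at 68.5 and 51.2 CPM against 266 and 211.

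Of the 70 tested list members 10 rose in FIH-KO normoxia against WT normoxia, near the background of 15.2%, and 16 fell (background 13%). Those that fell included Pfkp, Ldha, Slc16a3, Tfrc and Pgam1. The 10 that rose were Hk1, Eno2, Ndrg1, Kdm3a, Ddit4, Vegfa, Plod1, P4ha3, Loxl4 and Gbe1. The rises ran from 0.45 for Kdm3a to 1.55 for Ddit4. In the direct comparison Hk1, Ndrg1, Kdm3a, Ddit4 and Vegfa were called lower in FIH-KO normoxia than in WT hypoxia, although the Hk1 call did not hold without single libraries, Eno2, Plod1 and Gbe1 were not called, and P4ha3 and Loxl4 were higher.

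**Figure D4:**
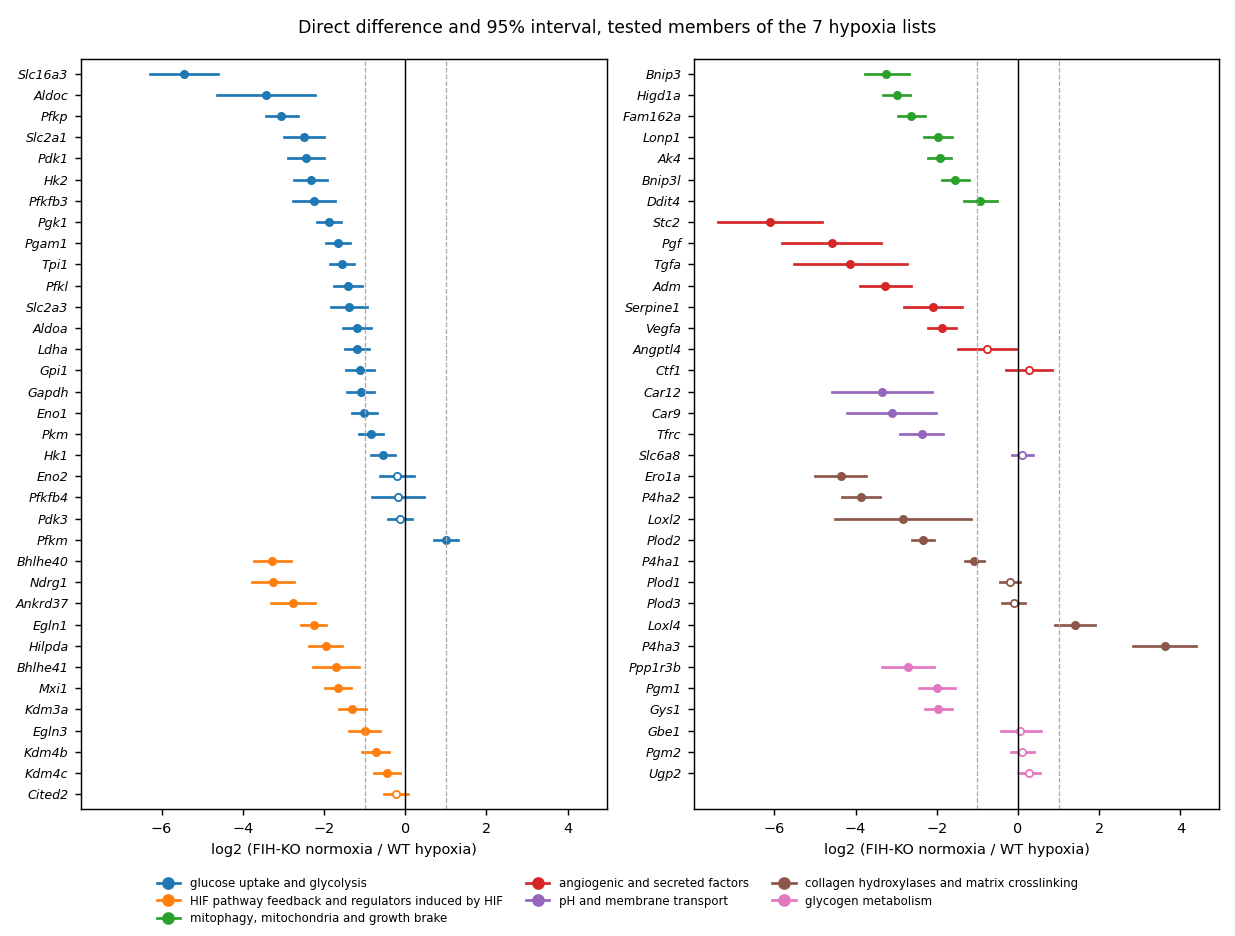
Log2 difference FIH-KO normoxia over WT hypoxia (x axis, point) with its 95% interval (line) for tested members of the hypoxia lists (rows, colored by list). Filled points had an adjusted p under 0.05, open points did not, dashed lines mark 1 log2 unit either side of 0, and 40 intervals lie wholly to the left of -1 against 1 (P4ha3) wholly to the right of 1.

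The genes of the oxygen-sensing machinery differed in both directions. Of 8 tested, 2 were higher in FIH-KO normoxia (background 23.5%) and 4, with Hif1an among them, in WT hypoxia (background 23.8%). Hif1a was at 353 and 316 CPM against 426 and 502 (-0.47, adjusted p = 0.01), a call lost without FIH-KO normoxia replicate 2 (-0.38, adjusted p = 0.082) or WT hypoxia replicate 2 (-0.34, adjusted p = 0.11). Its partner Arnt was at 57.5 and 57.3 CPM against 76.7 and 81.0 (-0.46, adjusted p = 0.0054). Epas1, the gene for HIF-2α, was under the filter. Vhl was at 19.5 and 21.0 CPM against 46.0 and 41.8 (-1.12, adjusted p = 5e-05), whereas Egln2, the gene for PHD1, was higher in FIH-KO normoxia, at 47.6 and 47.2 against 29.3 and 22.9. Arnt2, a partner of low expression here, was at 6.01 and 5.26 CPM against 0.280 and 0.273, a difference of 4.31. The coactivator genes Ep300 and Crebbp were not called, and the intervals of their differences ran from -0.35 to 0.15 and from -0.45 to 0.07.

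Stress responses of the endoplasmic reticulum and of amino acid supply were on the side of WT hypoxia. Of the unfolded protein and integrated stress response 24 genes were tested. Of these, 21 were higher in WT hypoxia (background 23.8%) and 0 in FIH-KO normoxia (background 23.5%), with a median of -1.24. Against WT normoxia 20 rose in hypoxia (background 16.9%) and 0 fell, and with FIH loss 4 rose, close to the background of 15.2%, and 6 fell (background 13%). Atf3, a transcription factor of the stress response, was at 2.56 and 3.97 CPM against 86.2 and 72.4 (-4.59, standard error 0.31, adjusted p = 7.4e-07). Trib3, a pseudokinase induced by ATF4 and CHOP, was at 23.8 and 23.3 CPM against 298 and 205. Ddit3, which encodes CHOP, was at 10.7 and 7.84 CPM against 84.5 and 61.3, and it rose in each group against the 3.02 and 4.15 CPM of WT normoxia, by 1.36 (adjusted p = 0.011) and 4.34 (adjusted p = 7e-06). Atf4 itself was at 276 and 289 CPM against 793 and 698.

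Myc stood out among growth genes. Its level was 92.9 and 129 CPM in FIH-KO normoxia, 1169 and 750 in WT hypoxia, 252 and 204 in WT normoxia and 467 and 228 in FIH-KO hypoxia. It fell with FIH loss (-1.04, adjusted p = 0.02), rose with hypoxia (2.07, adjusted p = 0.00038) and differed by -3.11 between the groups (interval -3.79 to -2.44). The list of Myc and ribosome biogenesis had 30 tested genes. Of these, 17 were higher in WT hypoxia (background 23.8%) and 0 in FIH-KO normoxia (background 23.5%). With FIH loss 24 fell (background 13%) and 0 rose, and with hypoxia 3 fell (background 15.5%) and 1, Myc, rose (background 16.9%). Npm1, a nucleolar chaperone, was at 1282 and 1310 CPM against 2565 and 2487, with 2783 and 2506 in WT normoxia. In WT hypoxia 26 of the 30 were not called against WT normoxia, and the list's medians were -0.72 with FIH loss and -0.11 with hypoxia.

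Called cell cycle genes went in both directions between the groups. Of the S phase genes 22 had a direct difference above 0 and 8 below, with a median of 0.27. For G2/M genes these were 13 and 17, with a median of -0.07. Of 30 tested S phase genes 8 were higher in FIH-KO normoxia and 4 in WT hypoxia, and of 30 G2/M genes 7 and 6 (backgrounds 23.5% and 23.8%). Against WT normoxia 10 S phase and 12 G2/M genes fell with FIH loss (background 13%), and 17 and 13 fell with hypoxia (background 15.5%). Aurkb, a mitotic kinase, was at 112 and 104 CPM against 113 and 115, with 154 and 150 in WT normoxia. Its direct difference was -0.08 (interval -0.35 to 0.20, adjusted p = 0.66), and it fell with FIH loss (-0.49, adjusted p = 0.012) and with hypoxia (-0.42, adjusted p = 0.025). Cdca3, which promotes entry into mitosis, was not called either (-0.15, interval -0.48 to 0.18). Gins2, a subunit of the replicative helicase complex, was at 24.8 and 30.2 CPM against 12.9 and 12.2 and fell with hypoxia (-1.32, adjusted p = 0.00032).

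Oxidative phosphorylation separated the groups in the other direction from glycolysis. Of 29 tested genes 18 were higher in FIH-KO normoxia (background 23.5%) and 0 in WT hypoxia (background 23.8%), with a median of 0.37. For 28 the interval lay within 1 log2 unit (52.7% of all tested genes). Against WT normoxia 23 of 29 fell (background 15.5%) and 0 rose with hypoxia, while 9 fell (background 13%) and 1 rose with FIH loss. Ndufb10, a subunit of complex I, was at 67.0 and 80.4 CPM against 39.3 and 40.8 (0.88, standard error 0.13, adjusted p = 0.00022), with 69.9 and 74.4 in WT normoxia. Sdhc, which anchors complex II, was at 162 and 136 against 93.6 and 90.2.

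In cholesterol synthesis many genes, but not all, rose in each group against WT normoxia. With FIH loss 11 of 21 tested genes rose (background 15.2%), 0 fell and 10 were not called. With hypoxia 15 rose (background 16.9%), 0 fell and 6 were not called. In the direct comparison 8 were higher in WT hypoxia (background 23.8%), 1 in FIH-KO normoxia (background 23.5%) and 12 were not called. Sqle, the squalene epoxidase, was at 226 and 149 CPM against 345 and 306, with 122 and 122 in WT normoxia. It rose by 0.62 with FIH loss (adjusted p = 0.014) and by 1.41 with hypoxia (adjusted p = 9.9e-05).

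Most tested interferon-response and antioxidant genes were on the side of FIH-KO normoxia. Of 38 interferon genes 25 were tested. Of these, 17 were higher in FIH-KO normoxia (background 23.5%) and 2 in WT hypoxia (background 23.8%). With FIH loss 14 rose (background 15.2%) and 0 fell, and with hypoxia 2 rose and 7 fell (background 15.5%). Untested members included Ifit1, Rsad2 and Mx1, and 9 of the 38 held 3 reads or fewer in each of the 8 libraries. Psmb9 (0.893 and 0.896 CPM in FIH-KO normoxia, at most 0.375 elsewhere) and Rtp4 (1.49 and 1.12, at most 0.562 elsewhere) passed the filter through that group. Usp18, one of the genes called higher, also needed that group to pass, at 1.73 and 0.784 CPM there. It was at 0.812 and 0.586 in FIH-KO hypoxia and at most 0.578 in the WT libraries. Xaf1, which was not called, needed that group as well. The share called higher is thus partly set by the filter and cannot be weighed against the background. Parp14, an interferon-induced ADP-ribosyltransferase, was at 22.6 and 18.2 CPM against 1.40 and 3.69 (3.04, standard error 0.39), and Tap1, the peptide transporter for MHC class I, at 14.8 and 13.7 against 1.79 and 3.35. Isg20, an exonuclease, was an exception, at 7.26 and 8.34 CPM against 41.5 and 32.2, with rises in each group against WT normoxia. Of 25 antioxidant and NRF2 target genes 15 were higher in FIH-KO normoxia (background 23.5%) and 2 in WT hypoxia (background 23.8%). Against WT normoxia 10 of these 25 rose (background 15.2%) and 2 fell (background 13%) with FIH loss. With hypoxia 3 rose (background 16.9%) and 8 fell (background 15.5%). Nqo1, a quinone reductase, was at 295 and 146 CPM against 24.2 and 18.2, with 60.5 and 39.0 in WT normoxia, and it rose with FIH loss (2.15, adjusted p = 0.0006) and fell with hypoxia (-1.23, adjusted p = 0.016). The glutathione transferase gene Gstm1 behaved likewise, at 298 and 188 CPM against 27.3 and 27.2. Hmox1, heme oxygenase, was on the other side, at 22.3 and 24.9 CPM against 193 and 109.

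Of 27 tested p53 targets 10 were higher in FIH-KO normoxia (background 23.5%) and 6 in WT hypoxia (background 23.8%), the latter close to the share of all genes. Against WT normoxia 13 rose and 0 fell with FIH loss (backgrounds 15.2% and 13%), and 10 rose and 4 fell with hypoxia (backgrounds 16.9% and 15.5%). Trp53inp1, a p53-induced regulator of stress and autophagy, was at 168 and 108 CPM against 62.8 and 53.9, with 29.6 and 31.3 in WT normoxia, and rose in each group. Sesn1, a sestrin that restrains mTORC1, was at 72.3 and 46.6 CPM against 12.0 and 16.9. It rose with FIH loss (1.21, adjusted p = 0.0032) and fell with hypoxia (-0.84, adjusted p = 0.024). Gadd45a, a DNA damage response gene, was at 14.2 and 8.62 CPM against 58.3 and 44.3.

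Of 19 tested YAP/TAZ targets and angiomotins 6 were higher in FIH-KO normoxia and 4 in WT hypoxia, near the shares of 23.5% and 23.8% over all genes. Amot (chromosome X, 144229421 to 144288177, GRCm39), the scaffold protein angiomotin that holds YAP and TAZ out of the nucleus, was at 270 and 238 CPM in FIH-KO normoxia, 5.10 and 3.96 in WT hypoxia, 10.7 and 10.6 in WT normoxia and 110 and 196 in FIH-KO hypoxia. The direct difference was 5.80 (interval 5.21 to 6.39, adjusted p = 7.3e-08), and Amot rose with FIH loss (4.57) and fell with hypoxia (-1.22, adjusted p = 0.0063). Areg, an EGF receptor ligand, was at 9.59 and 10.7 CPM against 63.6 and 83.8, and it fell with FIH loss (-1.06, adjusted p = 0.029) and rose with hypoxia (1.80, adjusted p = 0.0011). Ccn1, a matricellular YAP target, was at 7.98 and 11.8 CPM against 31.9 and 26.4.

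Of the BCL2 family the study names Bcl2l1 and Bmf, and no list of the family was tested. Bcl2l1, which encodes the survival protein BCL-XL, was at 178 and 166 CPM against 63.3 and 62.9 (1.44, standard error 0.10, adjusted p = 1.1e-06), with 116 and 107 in WT normoxia. Bmf, which encodes a pro-apoptotic BH3-only protein, was at 13.2 and 8.84 CPM against 0.785 and 0.819 (3.77, standard error 0.32, adjusted p = 3.1e-06). Both rose with FIH loss and fell with hypoxia. Bbc3, another pro-apoptotic member and one of the p53 targets, was at 14.2 and 9.52 CPM against 17.2 and 12.1 and was not called (-0.31, adjusted p = 0.43).

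**Figure D5:**
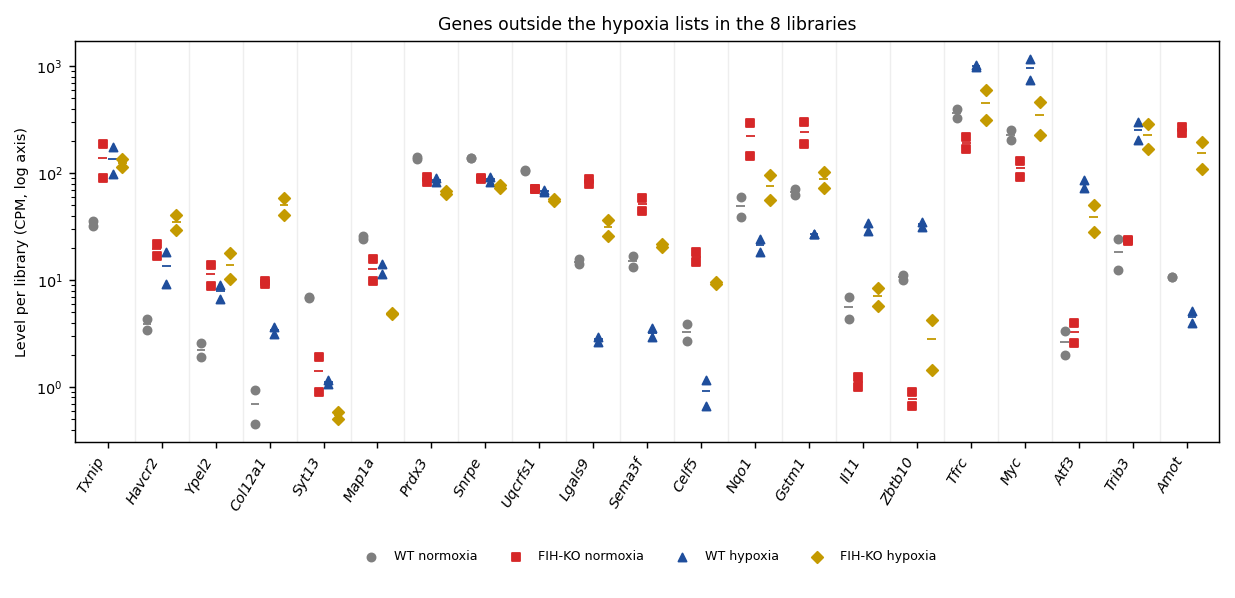
CPM on a log axis for genes outside the hypoxia lists, and for Tfrc, in each of the 8 libraries, with points for libraries, short lines for group means and the colors of WT normoxia (gray), FIH-KO normoxia (red), WT hypoxia (blue) and FIH-KO hypoxia (yellow). In Txnip, Prdx3 and Snrpe red and blue points share a level that is apart from the gray points, and in Lgals9, Sema3f, Nqo1, Il11, Zbtb10 and Amot they lie on opposite sides of the gray points.

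Some genes rose in each group against WT normoxia, and of these Txnip and Havcr2 overlapped between FIH-KO normoxia and WT hypoxia while Col12a1 and Unc13a did not. Txnip, an inhibitor of thioredoxin and of glucose uptake, was at 189 and 90.8 CPM in FIH-KO normoxia, 176 and 97.5 in WT hypoxia and 32.3 and 36.0 in WT normoxia. It rose by 2.03 and 2.0 (adjusted p = 0.00065 and 0.00064), and the direct difference was 0.03 with an interval from -0.61 to 0.67, since libraries within each group differed. Havcr2, the gene for the receptor TIM-3, was at 22 and 17.0 CPM against 18.3 and 9.15, with 4.37 and 3.44 in WT normoxia. Col12a1, a fibril-associated collagen, rose in each group but more with FIH loss, at 9.29 and 9.80 CPM against 3.64 and 3.14. Unc13a, a synaptic vesicle priming gene, rose in each group but more with hypoxia, at 15.0 and 15.4 CPM against 65.2 and 73.0.

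Among genes that fell in each group, those with the narrowest intervals around 0 in the direct comparison were housekeeping genes of moderate change. Prdx3, a mitochondrial peroxiredoxin, was at 83.0 and 92.0 CPM in FIH-KO normoxia, 83.2 and 90.0 in WT hypoxia and 142 and 137 in WT normoxia. It fell by 0.67 with FIH loss and by 0.69 with hypoxia, and the direct difference was 0.01 (interval -0.22 to 0.25). Snrpe, a core spliceosomal protein gene, was at 88.8 and 89.9 CPM against 83.3 and 92.2, with 140 and 139 in WT normoxia. Uqcrfs1, the Rieske protein gene of complex III, was at 70.9 and 70.8 CPM against 66.2 and 69.1 (0.07, interval -0.16 to 0.29). Syt13, a synaptotagmin gene, fell further, from 6.94 and 6.81 CPM to 1.91 and 0.896 with FIH loss and to 1.06 and 1.16 with hypoxia.

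Other genes moved in opposite directions. Lgals9, which encodes galectin-9, was at 89.2 and 78.6 CPM in FIH-KO normoxia, 2.91 and 2.66 in WT hypoxia and 15.6 and 14.3 in WT normoxia. It rose by 2.49 with FIH loss (adjusted p = 2.6e-06) and fell by 2.41 with hypoxia (adjusted p = 1.6e-05). Vsir, the gene for the immune checkpoint VISTA, was at 29.1 and 16.5 CPM against 0.897 and 2.46, and Sema3f, a secreted semaphorin, at 58.9 and 44.5 against 2.91 and 3.55. In the reverse direction Il11, a cytokine of the IL-6 family, was at 1.01 and 1.23 CPM in FIH-KO normoxia, 34.0 and 28.8 in WT hypoxia and 6.94 and 4.38 in WT normoxia (direct difference -4.79, standard error 0.30). Vldlr, the very low density lipoprotein receptor gene, held 1 read in the FIH-KO normoxia libraries and 2050 in WT hypoxia, a ratio of 2186 (counting interval 392 to 86373), with 86 in WT normoxia. In FIH-KO hypoxia it held 23 reads in replicate 1 and 0 in replicate 2. Tmem45a, a transmembrane protein gene, held 0 reads against 362 and was at least 129-fold higher in WT hypoxia, with 3 reads over the group as the limit for 0. These intervals cover counting error only.

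The widest called differences outside these groups mostly followed genotype. Col4a5, a basement membrane collagen gene (chromosome X, 140258354 to 140472231, GRCm39), was at 91.6 and 72.4 CPM in FIH-KO normoxia and 0.560 and 0.546 in WT hypoxia, and at 49.2 and 52.2 in FIH-KO hypoxia and 0.386 and 0.829 in WT normoxia. The direct difference was 7.19 (interval 6.63 to 7.75, adjusted p = 2.6e-08), and hypoxia in WT cells left it uncalled (-0.15, adjusted p = 0.83). Dppa4, a pluripotency-associated gene, and Maged2, a MAGE family gene, had the same order, at 21.0 and 19.1 against 0.617 and 0.137 CPM and at 41.1 and 36.7 against 1.35 and 0.819. Peg3, an imprinted zinc finger gene, was at 1.85 and 0 CPM in FIH-KO normoxia, 64.3 and 80.8 in WT hypoxia and 49.2 and 68.5 in WT normoxia. Adgrl2, an adhesion receptor gene, was at 0.357 and 0 against 15.0 and 17.7. The FIH-KO normoxia reads of both genes, 31 and 6, were all in replicate 1, and without it the fitted differences, which then depend on the prior count, went from -6.32 to -13.18 for Peg3 and from -6.50 to -11.04 for Adgrl2. A different order was seen in Atp7b, a copper-transporting ATPase gene, which held 5 reads in FIH-KO normoxia, 761 in WT hypoxia, 186 in FIH-KO hypoxia and 5 in WT normoxia. Acta2, smooth muscle actin, was at 12.0 and 46.1 CPM against 0.224 and 0.478, with a wide spread between its FIH-KO libraries (6.39, standard error 0.86).

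By chromosome, genes on chromosomes 3 and 19 were shifted toward WT hypoxia. The median direct difference was -0.42 over 683 tested genes of chromosome 3, where 43.8% were lower and 12.3% higher in FIH-KO normoxia, and -0.42 over 476 genes of chromosome 19, where 46% were lower and 10.3% higher. With FIH loss these medians were -0.36 and -0.38, and with hypoxia 0.00 and -0.00. Chromosome 19 holds Hif1an and, of the hypoxia lists, Pgam1, Mxi1 and Loxl4. Pgam1, phosphoglycerate mutase, was at 141 and 161 CPM against 508 and 441 and fell with FIH loss by 1.03 (adjusted p = 0.00017), and Mxi1, a Myc antagonist, was at 60.6 and 59.6 against 189 and 190. The part of the chromosome shift in single genes was not tested. On chromosomes 2 and 16 the medians were 0.22 and 0.21. The highest median was that of the mitochondrial chromosome, 0.48 over 18 tested genes, with 0.32 for FIH loss and -0.32 for hypoxia. There 50% were higher and 5.56% lower in FIH-KO normoxia.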

How the data were processed

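RNA was measured in 8 libraries of LLC cells, 2 for each of WT and FIH-KO in normoxia and hypoxia, grouped by their labels. The authors prepared stranded mRNA libraries, aligned reads with STAR to GRCm39 and used HTSeq for gene counts. The submitters' processing notes also list GRCm38. The strand setting of the counting is not given in the sources used here. The deposited values are raw counts of 53700 genes, and no value column was left unused. Of the identifiers, 52610 (98%) were found in the GENCODE annotation of GRCm39.

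Counts were tested in R 4.3.3 with edgeR 4.0.16 (filterByExpr, TMM, a quasi-likelihood fit of all 8 libraries with a mean for each group, Benjamini-Hochberg adjustment, threshold 0.05). The common biological coefficient of variation was 11.7%. Intervals are 95% intervals from the same fit. CPM are counts scaled by library size and TMM factor, and 3 reads is the floor for a count of 0. Intervals of read ratios and floors cover counting error only. The members, the gene lists and the rule for named genes were chosen with earlier results of these data known. Named genes are members of the hypoxia lists, the 10 highest and 10 lowest of the direct comparison with a mean of at least 50 counts, the 8 leading genes that changed alike or oppositely against WT normoxia, genes the study names, up to 4 leading members of other lists, and 6 genes with the narrowest intervals around 0. Members of fixed lists named for their role (Atf4, Bbc3, Cited2, Ep300, Crebbp, Hif1a, Arnt, Epas1) and the marker genes were added. Where a symbol stands in several rows, the row with most reads was used. Alternatives were DESeq2 1.42.0, RLE or upper-quartile factors, no filter or at least 10 counts in every library, a fit of the 4 libraries compared, the replicate number as a term, and each library left out. A few genes are not reported here by name, though they count in the totals. Plots used matplotlib 3.10.9.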

Additional observations from a re-analysis of the deposited data

How the results depend on the processing

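The direct comparison kept its counts within 1.5 times under every alternative run. Genes called ranged from 5726 to 6924 over the other settings and from 4966 to 7251 when a library was left out. Of these, genes higher in FIH-KO normoxia numbered 2879 to 3511 and 2492 to 3627, and genes higher in WT hypoxia 2847 to 3413 and 2398 to 3661. Genes whose interval lay within 1 log2 unit numbered 7000 to 7641 and 6295 to 7608. Hypoxia-list members higher in WT hypoxia numbered 47 to 55 and 51 to 54, and those higher in FIH-KO normoxia 3 to 4 in each. Against WT normoxia, where single libraries mattered more, FIH loss gave 3933 calls and 1735 to 4672 when a library was left out, with 1893 without FIH-KO normoxia replicate 1, 1735 without WT normoxia replicate 1 and 2080 without WT normoxia replicate 2. Hypoxia gave 4509 calls and 2124 to 5270, with 2690 and 2867 without WT hypoxia replicates 1 and 2, and 2561 and 2124 without WT normoxia replicates 1 and 2. All of these fits had fewer samples, and those without an FIH-KO hypoxia library gave more calls than the main fit in both contrasts. What moved the counts was not tested.

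The correlation of same-numbered deviations was -0.0104 between FIH-KO normoxia and WT hypoxia and ran from that to 0.193 over the group pairs. With 2 libraries a group this cannot show whether same-numbered replicates were handled together, and the main fit has no term for the replicate number. With the replicate block the direct comparison gave 6632 calls, FIH loss 4080 and hypoxia 4593.

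Of 1516 alternative values for 102 of the named genes, 1491 kept direction and side of the threshold. Genes that were not called changed sign when a library was left out, with differences from -0.56 to 0.15 for Pfkfb4, -0.43 to 0.07 for Eno2, -0.02 to 0.54 for Ctf1, -0.28 to 0.07 for Plod3, -0.21 to 0.32 for Gbe1, -0.02 to 0.27 for Pgm2, -0.57 to 0.53 for Txnip, -0.29 to 0.79 for Syt13, -0.05 to 0.11 for Prdx3 and -0.03 to 0.11 for Snrpe. Among these 102 genes, calls were lost for Hk1, Hif1a and Krt18 when a library was left out, and gained for Angptl4 and Havcr2 under some settings. The cause was not tested. With 2 libraries a group and a median standard error of 0.17, small differences were not detectable.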
